A study of Mus musculus with 14 samples.

Results

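The CXCR3 axis consists here of 3 chemokine genes, Cxcl9, Cxcl10 and Cxcl11, and of Cxcr3, the gene of the receptor they share. These 4 genes were chosen by symbol from the 22180 genes that the first array design measures with a probe set of a single symbol, and from the 19938 genes of the second design. Each of the 4 had 1 probe set on either design. The tumours measured, as total RNA, were those of B16-F10, a pigmented melanoma line of C57BL/6 mice. They came from the sublines Res 499 and Res 177, labelled resistant, and of a subline labelled control and sensitive. Per the labels, cells were injected with Matrigel under the skin of C57BL/6 mice, first on the right side (day 0) and then on the left (day 2). On day 8 a dose of 20 Gy went to the right tumour, and mice had the CTLA4-blocking antibody 9H10, with doses on day 5, day 8 and day 11. The resistant sublines were recovered from unirradiated tumours that withstood this therapy or came back after it, and were then implanted again. The labels give the same therapy text for every tumour, leave unstated if these particular tumours were treated, and give no age of the mice. The first design held 7 Res 499 tumours, 1 Res 177 tumour and 4 control tumours, and the second held 1 Res 177 tumour and 1 control tumour. Each resistant subline is a single line, so replicate tumours measure the spread between tumours of that line.

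CXCL9, CXCL10 and CXCL11 are small secreted proteins that draw activated T cells and natural killer cells, which carry the receptor CXCR3, into inflamed tissue and tumours. Interferon gamma induces all 3 of their genes. Cxcl9 depends on interferon gamma most closely, whereas Cxcl10 also answers to type I interferons and to NF-kappaB signals, and can be made by tumour cells as well as by macrophages, endothelial cells and fibroblasts. In C57BL/6 mice the Cxcl11 reading frame is disrupted, and the RefSeq gene table of the C57BL/6J genome classes Cxcl11 as a transcribed pseudogene, so the values below describe its RNA. The 3 ligand genes lie side by side on chromosome 5, and Cxcr3 lies on chromosome X.

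The letters before the starts of Cxcl10 and Cxcl9 are shown because Cxcl9 spanned 30.3-fold between Res 499 tumours and Cxcl10 2.17-fold. That contrast was seen in these same data. No difference between the changes of the 2 genes was called (exact permutation p = 0.539, adjusted p = 0.647). The part of these letters in the levels was not tested. RefSeq promoters (GRCm38.p6) were found for 3 of the 4 genes, Cxcl9, Cxcl10 and Cxcr3. The 250 bases before the start of Cxcl10, chr5:92348890-92349139 on the minus strand, and of Cxcl9, chr5:92328080-92328329 on the minus strand, are printed 5′ to 3′, with capitals marking every match to one of 4 motifs searched on both strands.
Cxcl10: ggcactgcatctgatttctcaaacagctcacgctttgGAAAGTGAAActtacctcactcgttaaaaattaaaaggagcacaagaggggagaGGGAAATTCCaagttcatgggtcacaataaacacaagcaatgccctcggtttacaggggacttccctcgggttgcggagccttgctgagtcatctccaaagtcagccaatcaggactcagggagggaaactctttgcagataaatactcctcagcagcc
Cxcl9: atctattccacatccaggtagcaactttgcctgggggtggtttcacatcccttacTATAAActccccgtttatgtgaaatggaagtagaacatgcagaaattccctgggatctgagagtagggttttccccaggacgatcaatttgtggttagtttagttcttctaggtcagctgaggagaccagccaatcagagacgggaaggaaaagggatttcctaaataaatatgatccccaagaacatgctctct
The Cxcl10 window held the core of an interferon-stimulated response element (GAAA, any 2 bases, GAAA), as GAAAGTGAAA beginning 213 bases before the start, and a kappaB site (GGGA, any 2 bases, TTCC), as GGGAAATTCC beginning 159 bases before it. These letters were found in 2.98% and 1.21% of 32851 promoter windows of the same length. The Cxcl9 window held neither of them, and its only match was TATAAA, the letters of a TATA box, beginning 195 bases before the start, which 12.4% of windows hold. A gamma-activated site (TTCNNNGAA, 7.02% of windows) was in neither window. No 2 matches overlapped, and the Cxcr3 window held none of the 4 motifs.

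All levels are log2 expression values, on which a step of 1 is a factor of 2 in signal, and changes are differences of these values. Changes on the first design were tested over 16635 genes with limma, a linear model with variances shared between genes, with Benjamini-Hochberg adjustment and a threshold of 0.05. All 4 members were among the genes tested. By mean level over the 12 tumours, Cxcl10 and Cxcl9 stood at percentiles 79.8 and 79.2 of all genes, Cxcr3 at 63.4 and Cxcl11 at 45.6. In Res 499 against control tumours 1 of the 4 members rose, Cxcl10, where 24 of 16635 genes (0.144%) rose and 59 (0.355%) changed in either direction.

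Cxcl10 was the one member that passed the limma test in Res 499 against control tumours. Its level was 8.93 at the lowest, 9.76 at the median and 10.05 at the highest in the 7 Res 499 tumours, and 7.61, 8.17, 8.32 and 8.90 in the 4 control tumours. Every Res 499 tumour thus lay above every control tumour, though the lowest Res 499 tumour (replicate 7) and the highest control tumour (replicate 5) nearly met. Such a separation held for 205 of 16635 genes (1.23%) in this direction and for 2.39% in either. The means were 9.58 ± 0.41 (SD, n = 7) in Res 499 and 8.25 ± 0.53 (SD, n = 4) in control tumours. The change was 1.33 (SE 0.25, limma adjusted p = 0.0482), or 2.51-fold with a 95% interval from 1.73-fold to 3.63-fold. The two-sided exact permutation test over tumours gave p = 0.00606, the smallest it can give here. That p was not adjusted over the 4 members or over all genes, and it restates the separation of the groups. The size of the change was 1.11 to 1.54 when each tumour was left out in turn, but the limma call rested on single tumours. It was kept without Res 499 replicate 2 (adjusted p = 0.0320), Res 499 replicate 7 (0.0383) or control replicate 5 (0.0215). It was lost without Res 499 replicates 1, 3, 4, 5 or 6 (adjusted p = 0.0833, 0.0794, 0.0986, 0.0547 and 0.0769) or control replicates 2, 3 or 4 (0.117, 0.107 and 0.169), and with no filter on dim genes (0.0575).

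**Figure D1:**
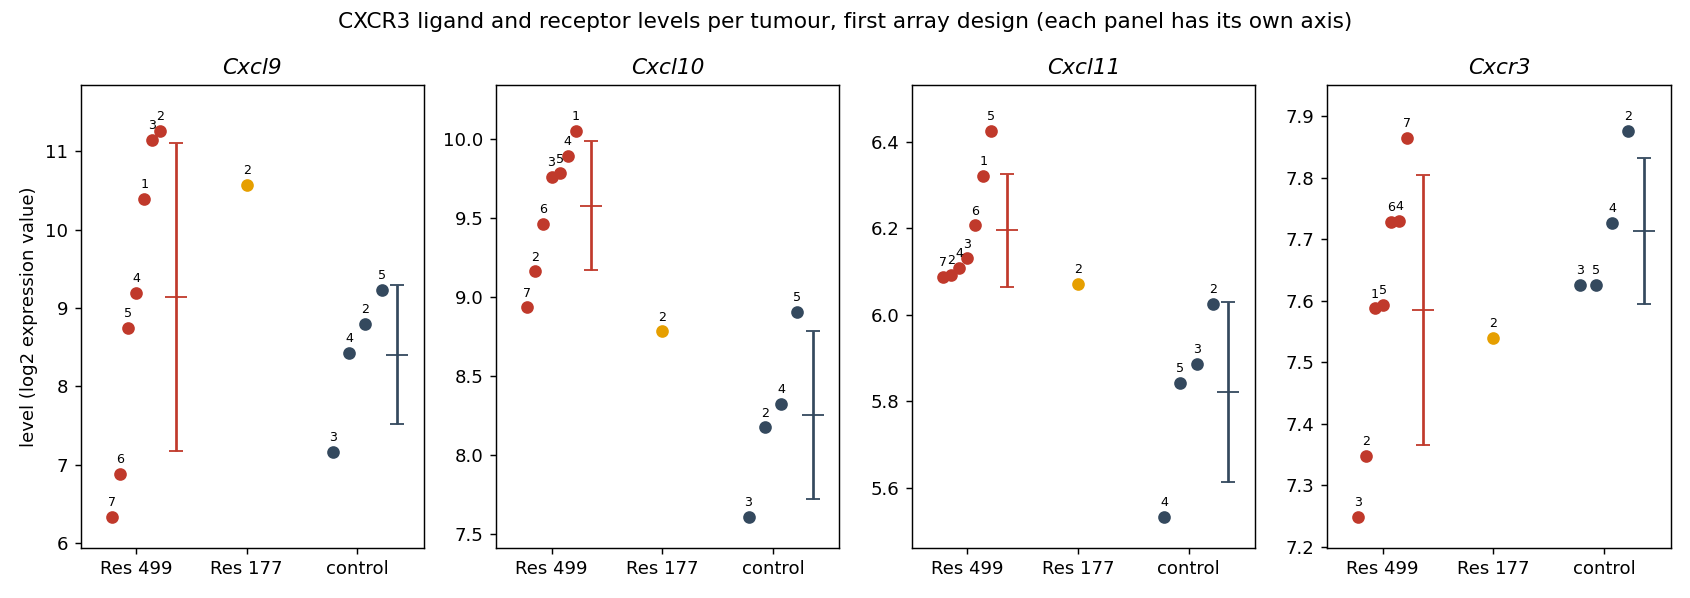
Level of each of the 4 genes (log2 expression value, vertical axis, a separate scale in each panel) in the tumours of the first array design, by group. Points are tumours with their replicate numbers, and the bars beside them give mean and SD. For Cxcl10 and Cxcl11 all 7 Res 499 tumours lie above all 4 control tumours, while Cxcl9 in Res 499 runs from 6.33 to 11.26, beyond both ends of the controls.

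Cxcl11 separated the groups in the same direction, with a smaller difference that did not pass the test. Its level was 6.09 at the lowest, 6.13 at the median and 6.42 at the highest in Res 499 tumours, and 5.53, 5.84, 5.89 and 6.02 in control tumours. The groups did not overlap, which held for 205 of 16635 genes (1.23%) in this direction and for 2.39% in either. The lowest Res 499 tumour, at 6.09, and the highest control tumour, at 6.02, nearly met. The difference was 0.37 (SE 0.10, 95% interval 0.16 to 0.59) (limma adjusted p = 0.126). The exact permutation p was 0.00606, again unadjusted and the smallest possible. Over 23 alternatives its limma adjusted p ran from 0.0653 to 0.380. The difference stayed positive, but leaving out a tumour could not change its sign because the groups did not overlap. In the covariate fits, which could, it was 0.31 to 0.39.

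Cxcl9 varied more between Res 499 tumours than between the groups. Its level was 6.33 at the lowest, 9.20 at the median and 11.26 at the highest in Res 499 tumours, and 7.17, 8.43, 8.79 and 9.23 in control tumours. In all, 3 Res 499 tumours (replicates 1, 2 and 3) lay above every control tumour, 2 (replicates 6 and 7) lay below every control tumour, and 2 lay among them. The span from the lowest to the highest tumour was 30.3-fold in Res 499 and 4.17-fold in control tumours, whereas for Cxcl10 it was 2.17-fold and 2.46-fold. The mean difference was 0.73 (SE 0.90, 95% interval -1.22 to 2.68, limma adjusted p = 0.797), an interval that spans changes of either sign. The exact permutation p was 0.515.

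Cxcr3, the receptor gene, did not pass the test, and its mean was slightly lower in Res 499. Its level was 7.25 at the lowest, 7.59 at the median and 7.86 at the highest in Res 499 tumours, and 7.63, 7.63, 7.73 and 7.88 in control tumours. The groups overlapped, with 4 of 7 Res 499 tumours below every control tumour and 0 above. The difference was -0.13 (SE 0.11, 95% interval -0.37 to 0.12, limma adjusted p = 0.696, exact permutation p = 0.303).

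Whether the members changed unequally was tested on the difference between 2 members within each tumour, for the 6 pairs, with a two-sided exact permutation test over the 7 Res 499 and 4 control tumours and adjustment over the 6 pairs. The change of Cxcl10 was larger than that of Cxcl11 by 0.95 (exact p = 0.0121, adjusted p = 0.0242) and larger than that of Cxcr3 by 1.45 (exact p = 0.0121, adjusted p = 0.0242). The change of Cxcl11 exceeded that of Cxcr3 by 0.50 (exact p = 0.0121, adjusted p = 0.0242). In each of these 3 pairs 6 of 7 Res 499 tumours lay above every control tumour. Cxcl11 read only 5.53 to 6.42 in these tumours, near the array medians of 5.70 to 5.80. The part of this low level in its smaller change was not tested. No difference was called between Cxcl9 and another member: against Cxcl10 it was -0.59 (exact p = 0.539, adjusted p = 0.647), with an SD between tumours of 1.83 in Res 499 and 0.45 in control. The 3 calls were lost without any 1 of control replicates 2, 3, 4 and 5, where the adjusted p lay between 0.05 and 0.0667. With 3 control tumours the exact test cannot give an unadjusted p below 0.0167. That limit did not by itself force the loss, since 3 pairs at 0.0167 would have passed the adjustment over 6.

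Within Res 499, Cxcl9 was highest in the tumours with most leukocyte signal, while Cxcl10 lay above the control tumours at either end of it. Leukocyte content was taken as the mean level of 5 leukocyte genes (Ptprc, Cd53, Laptm5, Coro1a and Itgb2), and in bulk tumours fewer cells of a type and less RNA per cell cannot be told apart. It was 7.86 to 8.23 in Res 499 replicates 1, 2, 3 and 5, and 6.23, 6.82 and 6.89 in replicates 7, 6 and 4, against 6.35 to 6.83 in control tumours. Replicates 2 and 3, with the highest content, had the highest Cxcl9, at 11.26 and 11.14. Replicate 6, with content just under the highest control tumour, and replicate 7, with content below every control tumour, had Cxcl9 at 6.88 and 6.33, below every control tumour, and Cxcl10 at 9.46 and 8.93, above every control tumour. Replicate 4, with content just above the highest control tumour, had Cxcl10 at 9.89 and Cxcl9 at 9.20. Replicate 5 had high leukocyte content with Cxcl9 at 8.75, within the range of the controls.

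**Figure D2:**
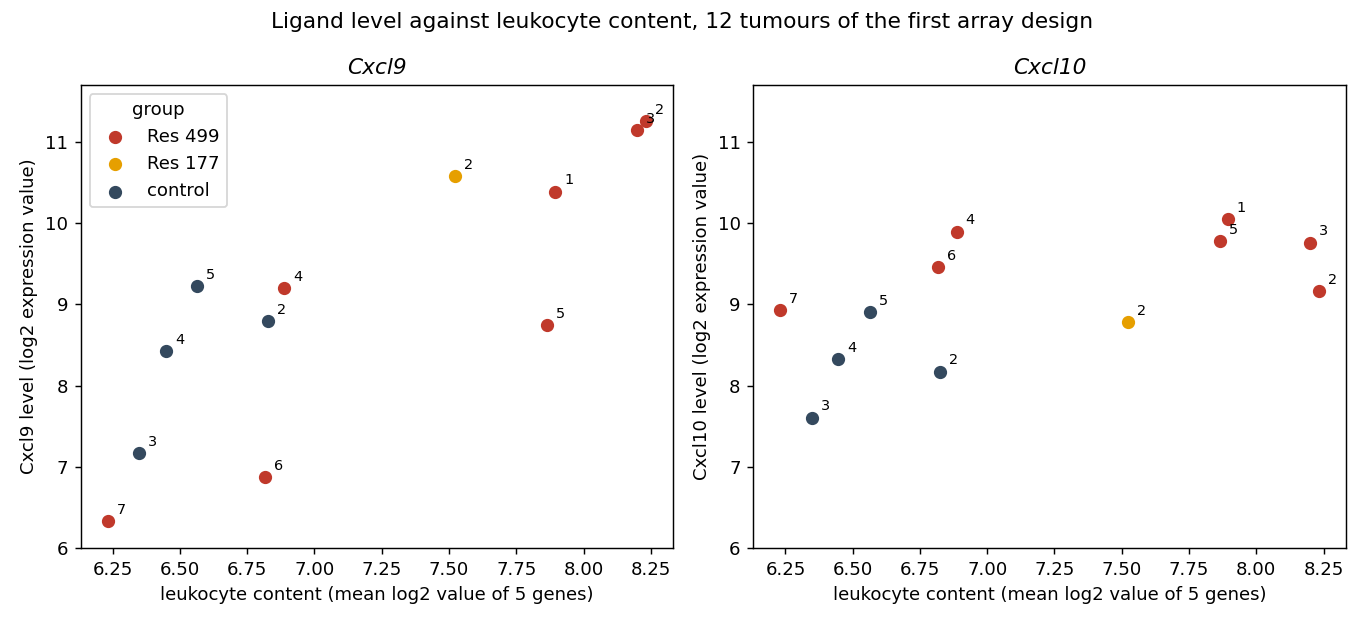
Level of Cxcl9 (left) and Cxcl10 (right), in log2 expression values, against leukocyte content (mean log2 value of 5 genes) in the 12 tumours of the first design. Points are tumours with their replicate numbers. Cxcl9 is lowest in the Res 499 tumours 6 and 7 and highest in 2 and 3, while all 7 Res 499 tumours lie at or above 8.93 for Cxcl10.

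Marker lists of other cells were measured in the same tumours, and none of the macrophage or T cell markers passed the test. In Res 499 the changes of all 16 tested macrophage and monocyte markers were positive (median 0.85), as were those of all 15 tested T cell, CD8 and NK markers (median 0.23), where the median over all genes tested was 0.01. Over all 16635 genes tested 51.7% of changes were positive and 13% had an unadjusted p under 0.05. In these lists 0 members passed the limma test, and 5 of 16 macrophage markers (31.2%) and 1 of 15 T cell markers (6.67%) had an unadjusted p under 0.05, the second share being below that of all genes. Of the 5 leukocyte content genes 4 (80%) had such a p, with a median change of 0.71 and 0 called. It was found for 4 of 9 dendritic cell markers (44.4%), 1 of 7 endothelial markers (14.3%) and 0 of 8 fibroblast markers, with 0 called. The part of these cells in the differences of the chemokines was not tested beyond the covariate fits given next. The mean level of the macrophage list ran from 6.58 to 8.73 in Res 499 tumours and from 6.77 to 7.29 in control tumours, and that of the T cell list from 5.32 to 6.16 in Res 499 and from 5.33 to 5.64 in control tumours. The groups overlapped for either list mean, with 4 of 7 Res 499 tumours above every control tumour and 1 below. The natural killer marker Ncr1 was dim, at 5.11 ± 0.23 (SD, n = 7) in Res 499 and 4.99 ± 0.12 (SD, n = 4) in control tumours. Melanocyte markers, which define the line, were high in every group, with list means of 12.46 to 12.81 in Res 499, 12.59 in the Res 177 tumour of the first design and 12.55 to 12.62 in control tumours.

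With leukocyte content as a covariate in the limma fit, the Cxcl10 difference was 1.12 (SE 0.29, adjusted p = 0.152), close to its size without it, and no longer passed; 27 of 16635 genes (0.162%) were called in that fit. The Cxcl11 difference was 0.31 (SE 0.12, adjusted p = 0.350). The Cxcl9 difference turned to -1.30 (SE 0.54, adjusted p = 0.381), and that of Cxcr3 to 0.08 (SE 0.10, adjusted p = 0.825). With the macrophage list, the T cell list or the interferon-stimulated genes as the covariate, the Cxcl10 difference was 1.20, 1.18 and 1.04, with adjusted p = 0.114, 0.0922 and 0.193. The Cxcl9 difference was -0.90, -0.86 and -1.69 in the same fits, with adjusted p = 0.622, 0.372 and 0.0732.

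**Figure D3:**
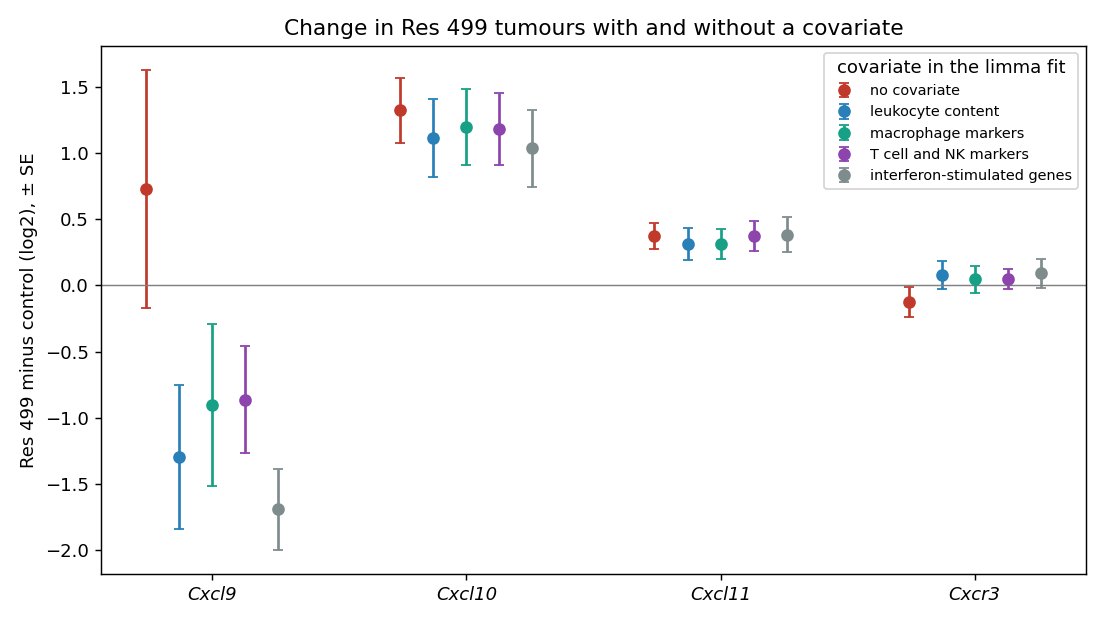
Change of each gene in Res 499 against control tumours (difference of log2 values, vertical axis, bars give ± SE) in limma fits with no covariate or with 1 of 4 list means as a covariate. Cxcl10 keeps 1.04 to 1.33 in all 5 fits, and Cxcl9 lies between -1.69 and -0.86 with a covariate and at 0.73 without one.

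Relations between members and the list means were computed within the 7 Res 499 tumours, 22 in all, with exact permutation tests over all pairings and adjustment over the 22. The tumours split into 3 and 4 by leukocyte and by macrophage level, with a gap between, and 2 tumours stood apart in Cxcl9 and in the interferon-stimulated genes, so no coefficient within Res 499 is given over those measures and each of those clusters holds too few tumours for one. For Cxcl9 the values alone are given: the tumours with the highest T cell list means, replicates 2 and 3 at 6.16 and 6.06, had the highest Cxcl9, and those with the lowest, replicates 6 and 7 at 5.38 and 5.32, had the lowest. The T cell, CD8 and NK list spread without such a gap. Cxcr3 ran against it, with Pearson r = -0.96 (exact permutation p = 0.00278, adjusted p = 0.0140) and Spearman rho = -0.93 (exact p = 0.00675, adjusted p = 0.0297), and r was -0.92 over the 5 tumours left without the 2 farthest from the median of the list. Cxcr3 is carried by T cells and natural killer cells, yet its probe set was lowest, at 7.25 and 7.35, in the Res 499 tumours 3 and 2 with the highest T cell list means, 6.06 and 6.16. This direction was not particular to the T cell list. Cxcr3 also ran lower where leukocyte content, the macrophage list, the interferon-stimulated genes or Cxcl9 was higher. Cxcl10 gave r = 0.20 (exact permutation p = 0.671, adjusted p = 0.820) and rho = 0.21 (exact p = 0.662, adjusted p = 0.820) with the T cell list, and r was 0.87 without the 2 tumours. Cxcl11 gave r = -0.03 (exact permutation p = 0.956, adjusted p = 0.956) and rho = 0.14 (exact p = 0.783, adjusted p = 0.820), and r was 0.76 without them. Cxcl10 and Cxcl11 gave r = 0.56 (exact permutation p = 0.174, adjusted p = 0.382) and rho = 0.68 (exact p = 0.110, adjusted p = 0.241), and r was 0.18 without the 2 tumours farthest in Cxcl10.

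The genes whose levels were most like those of each member over the 12 tumours are given as a description, with no test. For Cxcl9 these were Iigp1 (r = 0.99), Gbp7 (0.98), Irgm1 (0.97), Igtp (0.97) and H2-Q4 (0.97), of which the first 4 are interferon-inducible GTPases of defence against intracellular microbes and the last is a class I histocompatibility gene of a family with near-identical copies. Iigp1 had 9.72 and 9.62 in Res 499 tumours 2 and 3 and 5.35 and 5.32 in tumours 6 and 7, against 5.43 to 7.31 in control tumours. These values restate its choice by likeness to Cxcl9 in the same tumours. For Cxcl10 they were Smagp (r = 0.94), Cav1, the caveolin gene (0.93), Prkcq, a protein kinase C gene (0.92), Oas1c of the oligoadenylate synthetase family (0.92) and Tubb2b, a tubulin gene (0.92). Within the 7 Res 499 tumours alone their r with Cxcl10 was 0.79, 0.71, 0.81, 0.91 and 0.38. For Cxcl11 the most alike were Simc1, Il1rn (the interleukin 1 receptor antagonist), Slc37a2, Cnpy2 and Psmd8, with r from 0.87 to 0.94, and for Cxcr3 they were Anks6, Dnaic2, Ddt, Gsdmc and Rnf167, with r from 0.86 to 0.94. These coefficients describe 14680 genes over the same 12 arrays and include the difference between the groups.

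Upstream of the ligands, the interferon gamma gene itself was dim and did not pass the test. Ifng had 5.55 ± 0.10 (SD, n = 7) in Res 499 and 5.49 ± 0.07 (SD, n = 4) in control tumours, a difference of 0.06 (SE 0.07, limma adjusted p = 0.774). The receptor chains differed by 0.07 (Ifngr1, SE 0.08) and 0.11 (Ifngr2, SE 0.07). Irf1, a transcription factor induced by interferon gamma, had 7.05 at the lowest, 8.31 at the median and 9.30 at the highest in Res 499 tumours, and 7.54, 7.56, 7.73 and 8.30 in control tumours. Like Cxcl9 it was below every control tumour in Res 499 replicates 6 and 7, at 7.05 and 7.18. Irf7, a regulator of type I interferon responses, differed by 0.83 (SE 0.25, adjusted p = 0.182), and Tnf, which signals to NF-kappaB, by 0.42 (SE 0.14, adjusted p = 0.214). Of 18 tested genes of interferon signalling to the ligands 0 passed the limma test, 5 (27.8%) had an unadjusted p under 0.05, where 13% of all genes did, 16 (88.9%) had positive changes, where 51.7% of all genes did, and the median was 0.14. Ifnb1, the interferon beta gene, lay under the filter on dim genes, at 4.30 in Res 499 and 4.41 in control tumours.

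Among other targets of interferon gamma, the changes of all 14 tested were positive (median 0.75), 0 passed the limma test and 3 (21.4%) had an unadjusted p under 0.05. Over all genes tested 51.7% of changes were positive and 13% had such a p. The largest were those of Igtp at 1.34 (SE 0.84) and Gbp4 at 1.33 (SE 0.90). Cd274, which encodes PD-L1, differed by 0.70 (SE 0.19, limma adjusted p = 0.138). Of 18 tested interferon-stimulated genes 17 (94.4%) had positive changes (median 0.68), 0 passed and 11 (61.1%) had an unadjusted p under 0.05, read against the same shares of all genes; Rtp4 was closest, at 1.40 (SE 0.27, adjusted p = 0.0513).

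**Figure D4:**
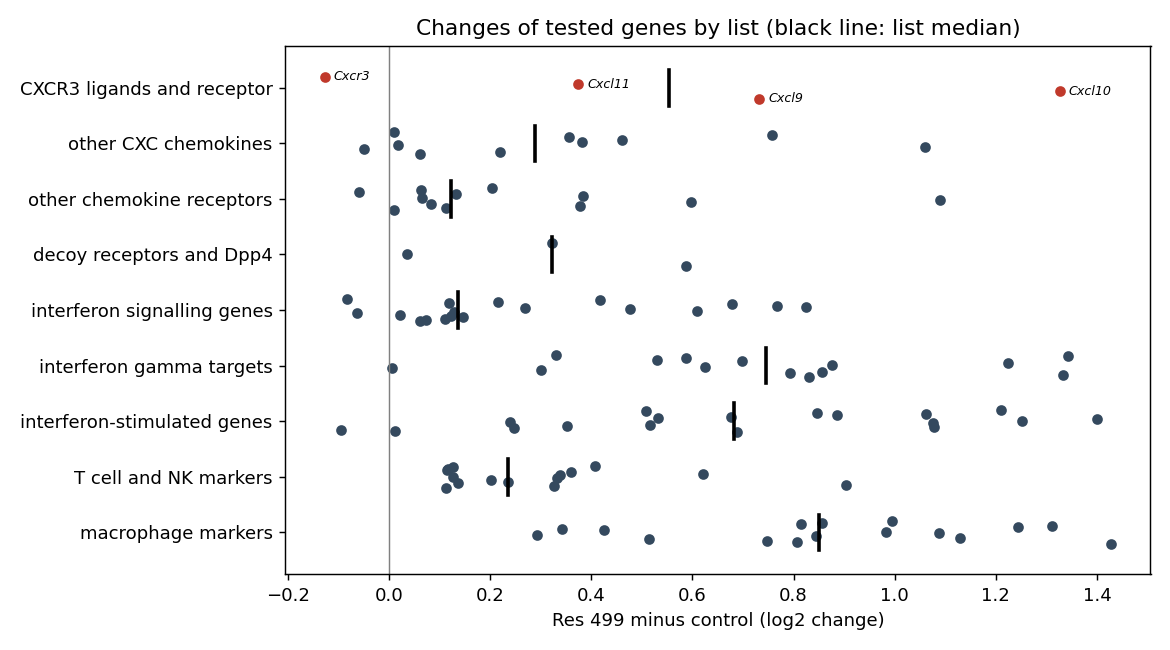
Change of each tested gene in Res 499 against control tumours (difference of log2 values, horizontal axis) for the CXCR3 ligands and receptor and 8 further lists; points are genes and black lines are list medians. Cxcl10, at 1.33, is the only gene drawn that passed the test, and Cxcr3 lies at -0.13.

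Among the 10 tested CXC chemokines outside the CXCR3 axis, Pf4, a platelet chemokine also made by macrophages, had the largest difference. It had 6.68 at the lowest, 7.54 at the median and 8.64 at the highest in Res 499 tumours, and 6.43 to 6.57 in control tumours. The groups thus did not overlap, which held in this direction for 205 of 16635 genes (1.23%). The Pf4 difference of 1.06 (SE 0.31) did not pass (limma adjusted p = 0.167). Cxcl16, the ligand of the receptor CXCR6, differed by 0.76 (SE 0.46, adjusted p = 0.535) and Cxcl12, the ligand of CXCR4, by 0.38 (SE 0.37, adjusted p = 0.726). Of these 10 CXC chemokines 9 had positive changes (median 0.29), and of 12 other chemokine receptors 11 (median 0.12), with 0 called in either list. An unadjusted p under 0.05 was found for 1 of the 10 chemokines, a share below the 13% of all genes, and for 3 of the 12 receptors. The receptor Cxcr4 differed by 0.38 (SE 0.12, adjusted p = 0.212), Ccr2 by 1.09 (SE 0.49, adjusted p = 0.370) and Ccr1 by 0.60 (SE 0.28, adjusted p = 0.387), and Cxcr6 was under the filter, at 4.79 in Res 499 and 4.54 in control tumours. Genes that remove the ligands were measured too: Dpp4, a protease that trims CXCR3 ligands, differed by 0.59 (SE 0.23, adjusted p = 0.290), Ackr3, a decoy receptor that binds CXCL11, by 0.32 (SE 0.13, adjusted p = 0.315), and Ackr1 was under the filter.

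None of the genes around the ligands on chromosome 5 passed the test. Art3, whose gene spans Cxcl10 and Cxcl11, differed by 0.37 (SE 0.17, limma adjusted p = 0.387). On one side Sdad1 and Uso1 differed by -0.04 (SE 0.07) and -0.01 (SE 0.07), and on the other Nup54 by -0.00 (SE 0.08), Scarb2 by -0.07 (SE 0.13), Fam47e by 0.05 (SE 0.09) and Stbd1 by 0.08 (SE 0.08). Naaa, an acid amidase gene, differed by 0.82 (SE 0.26, adjusted p = 0.196), and Ppef2 was under the filter on dim genes. Whether the change of Cxcl10 differs from that of each neighbour was not tested.

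In Res 177, the other resistant subline, Cxcl9 had the largest difference of the 4 genes, with wide error. In the single tumour of the first design Cxcl9 was at 10.58, Cxcl10 at 8.78, Cxcl11 at 6.07 and Cxcr3 at 7.54. Cxcl9 and Cxcl11 lay above every control tumour, as did 3736 of 16635 genes (22.5%), Cxcl10 lay below the highest control tumour, and Cxcr3 lay below every control tumour. The share of all genes below every control tumour was not counted. The differences were 2.17 (SE 1.60) for Cxcl9, 0.53 (SE 0.44) for Cxcl10, 0.25 (SE 0.17) for Cxcl11 and -0.17 (SE 0.20) for Cxcr3. None passed (limma adjusted p = 0.9998 for each, where 35 genes or 0.21% were called), and these SEs assume that the lone tumour varies like the others. With a list mean as covariate the Cxcl9 difference was -0.03 (leukocytes), 0.28 (T cell markers), 0.25 (macrophages) and -0.91 (interferon-stimulated genes), against 2.17 without one. Its leukocyte content was 7.52, above the 4 control tumours, and its macrophage list mean was 7.92. Keratinocyte markers stood apart in this tumour, with a list mean of 7.02 against 4.91 to 5.06 in control tumours and 5 of 6 tested markers called higher by limma; their part in the chemokine values was not tested.

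The second design, normalized apart, gave 1 Res 177 and 1 control tumour and allows no test. Cxcl9 was at 10.45 in the Res 177 and 7.92 in the control tumour, a difference of 2.54. Cxcl10 was at 11.35 in the Res 177 and 9.09 in the control tumour, a difference of 2.27. Differences of at least 1 in this direction were found in 182 of 14953 genes (1.22%), and in either direction in 1.67%, against 2 of the 4 members. Cxcl11 was at 6.10 in the Res 177 and 5.91 in the control tumour, and Cxcr3 at 8.48 in the Res 177 and 8.84 in the control tumour, differences of 0.19 and -0.35. Leukocyte content was 8.03 in the Res 177 and 6.87 in the control tumour, and the interferon gamma target list differed by a median of 1.47. Keratinocyte markers were higher in this Res 177 tumour too, with list means of 6.97 and 5.99. Of 8 such markers above the dim filter 6 were higher by at least 1, and their part in the chemokine values was not tested. The sign of each member's difference was the same on both designs, and the Cxcl10 difference was 0.53 on the first against 2.27 on the second.

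**Figure D5:**
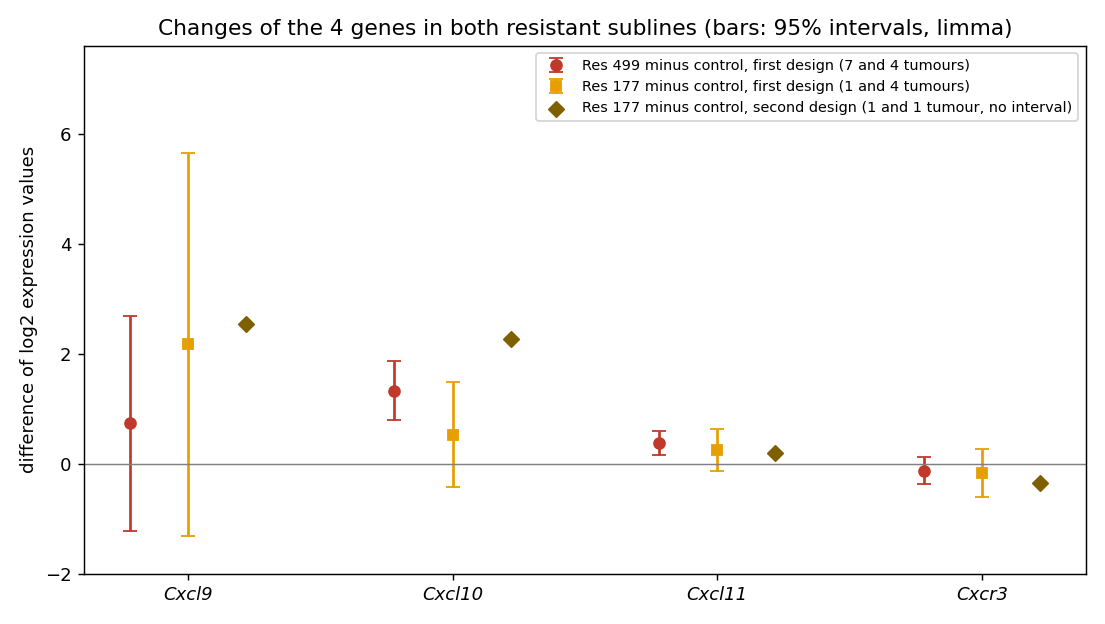
Difference of each gene from control tumours (log2, vertical axis) for Res 499 and Res 177 on the first array design, with 95% intervals from limma, and for Res 177 on the second design without an interval. The interval excludes 0 for Cxcl10 and Cxcl11 in Res 499, and Cxcl9 lies at 2.17 and 2.54 in the Res 177 tumours with an interval on the first design from -1.31 to 5.65.

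No member differed between the resistant sublines beyond the spread. Res 499 minus Res 177 was -1.44 (SE 1.53) for Cxcl9, 0.80 (SE 0.42, 95% interval -0.12 to 1.71) for Cxcl10, 0.12 (SE 0.17) for Cxcl11 and 0.05 (SE 0.19) for Cxcr3, each with a limma adjusted p = 0.99998, where 39 genes (0.234%) were called. With Res 499 and Res 177 joined as resistant, 8 tumours against 4 sensitive ones, the Cxcl10 difference was 1.23 (SE 0.26) and missed the threshold (limma adjusted p = 0.0553), where 102 genes (0.613%) were called; it was 1.33 (adjusted p = 0.0481) without the Res 177 tumour. Cxcl9 differed by 0.91 (SE 0.87), Cxcl11 by 0.36 (SE 0.09) and Cxcr3 by -0.13 (SE 0.11), with adjusted p = 0.715, 0.113 and 0.644. These comparisons share their control tumours with the comparison of Res 499.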

How the data were processed

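Tumour RNA of 14 samples was hybridised to 2 designs of Affymetrix whole-transcript array, 12 samples on the first and 2 on the second. For each probe set the authors deposited a log2 value; the submitters' processing notes name oligo and RMA. Versions and genome build: not given in the sources used here. The log2 scale was read from the values. The designs were normalized apart and were not pooled. Array medians on the first design were 5.70 to 5.80 and correlations between arrays 0.977 to 0.993, with 0 identical arrays; the number of arrays limits the precision. Groups came from the subline label. Replicate numbers only name tumours, and nothing says that tumours came from separate mice. Tumours taken as independent may thus share a mouse, and the p-values may then be too small.

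Of 41345 probe sets 23521 had 1 gene symbol, 1814 several and 16010 none; a gene was represented by its probe set of highest mean, and the lowest 25% of genes by mean were left out (16635 tested). Linear models (lmFit, eBayes) from limma 3.58.1, run under R 4.3.3, were fitted to 3 groups, and to 2 levels for resistant against sensitive, and were checked on simulated data. Exact permutation tests, correlations and motif searches were run in Python 3.11.15. The members and gene lists were chosen with earlier results of these data known. Genes named are the members, a set named whatever their values, up to 4 called or else the 2 largest changes of each list, the 5 genes most like each member, and neighbours of the ligands; 1 gene of that set is not reported here. Alternatives covered the filter, probe sets, normalization, eBayes prior, array weights, threshold, tumours left out and covariates; macrophage markers and interferon-stimulated genes as covariates were added after seeing the data.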

Additional observations from a re-analysis of the deposited data

Results flagged for a closer look

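In 40 sets of tumours (the 4 members and 16 list means, in Res 499 and in control), a single tumour far from the rest of its group was found 3 times, where chance flags about 1 in 20. None was a member of the CXCR3 axis. Control replicate 5 had a T cell, CD8 and NK list mean of 5.64, with the next control tumour at 5.36. The same tumour had the highest Cxcl9 and Cxcl10 of the control group. Control replicate 2 had a macrophage list mean of 7.29, with the next at 6.81. Control replicate 4 had a melanocyte list mean of 12.545, with the next at 12.61.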

How the results depend on the processing

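No paired analysis was possible because the replicate numbers were given in sample order and pair no tumours. In Res 499 against control the sign of the Cxcl10 and Cxcl11 changes was kept in all 24 and 23 alternatives. The groups do not overlap for either gene, so leaving out a tumour or weighting arrays could not change it. The dim filter, threshold and eBayes prior do not alter the estimate. Only the covariates and normalizations could have changed the sign. Cxcl10 was 1.33 with no filter on dim genes and fell short of the threshold there, as it did at 1.12, 1.18, 1.20 and 1.04 with leukocytes, T cell and NK markers, macrophages or interferon-stimulated genes as the covariate; it was 1.11 to 1.54 with each tumour left out. In the same 4 covariate fits Cxcl9 turned to -1.30, -0.86, -0.90 and -1.69 and Cxcr3 to 0.078, 0.049, 0.046 and 0.091. In resistant against sensitive tumours Cxcl9 turned to -1.16, -0.74, -0.79 and -1.64 and Cxcr3 to 0.075, 0.047, 0.044 and 0.092. In Res 177 on the first design Cxcl9 turned to -0.033 with leukocytes and -0.91 with interferon-stimulated genes, and Cxcr3 to 0.049, 0.035, 0.029 and 0.10; Res 499 minus Res 177 turned to -0.013 for Cxcr3 with interferon-stimulated genes. The cause was not tested. The number of genes called in Res 499 (59) was 356 with array weights, 229 at a threshold of 0.1, 27, 29 and 11 with leukocytes, macrophages and interferon-stimulated genes as the covariate, and 6 to 196 with each tumour left out. The pooled count (102) was 330, 254, 37, 46 and 12 in these settings, 48 with T cell and NK markers, and 9 to 141 with each tumour left out. Counts for Res 177 (35) and Res 499 against Res 177 (39) were 101 and 113 with no filter and 2 and 2 with the lowest 50% left out. The 3 called differences between members became 0 without any 1 control tumour and stayed at 3 without any 1 Res 499 tumour. Of 70 other named genes, 30, 17, 16 and 25 changed sign under the leukocyte, T cell, macrophage and interferon covariates while past the threshold in neither fit; counting these as unchanged was decided after their number was seen. Each member has 1 probe set, so averaging probe sets cannot change its value.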
